A study of Mus musculus with 6 samples.

Results

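The cytosolic ribosomal protein genes were taken as every probe set whose platform annotation gave exactly 1 gene symbol of the Rpl or Rps type, including Rplp0, Rplp1, Rplp2 and Rpsa and leaving out pseudogene symbols and the Rps6k kinases. This rule found 195 probe sets of 34760 in the value table, and they belonged to 63 gene symbols of 19937 measured. The rule read names only and used no measured value. Of the 63 genes, 54 encode standard ribosomal proteins, 30 of the large subunit, 3 of its acidic stalk and 21 of the small subunit. A further 6 are paralogs (Rpl3l, Rpl7l1, Rpl10l, Rpl39l, Rps4l and Rps27l). Rpl32l and Rps23rg1 matched by name and were placed in neither class. Rps19bp1, which encodes a protein that binds RPS19, is not a ribosomal protein although its symbol fits the pattern.

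The arrays measured RNA from PreGMs, myeloid progenitors that precede the granulocyte-macrophage stage, sorted from bone marrow of female C57BL/6 mice. The groups were 3 mice labelled Cebpa flox/flox and 3 labelled Cebpa flox/flox;Mx1Cre, 1 array each, and the study asked how the progenitors change when Cebpa, the gene of the myeloid transcription factor C/EBPα, is deleted. Both groups carry the floxed alleles and had been injected with pIC, which induces interferon, 18 days before. Cre in the second group is driven by the interferon-inducible Mx1 promoter, which is active in many cell types, and the first group has no Cre. The labels state no ages.

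Cebpa ran against the labels, with a log2 signal of 6.83 ± 0.11 (SD, n = 3) in the flox/flox arrays and 9.001 ± 0.30 in those labelled Mx1Cre (limma adjusted p = 2.65e-05). Probe positions were not used here, so whether this probe set reads the deleted part is not known. Whether the labels match the genotypes of the arrays was not tested. Every direction below follows the labels as deposited, so a rise or fall refers to the arrays labelled Mx1Cre and not to loss of Cebpa. Of 7 markers of the sorted population 4 were called higher in the arrays labelled Mx1Cre and 0 lower. They were Cebpa, Cd34 (10.28 against 11.29), Csf3r (6.86 against 7.82) and Mpo (12.41 against 12.89), while Kit gave 10.46 and 10.61 and was not called. Of 7 further surface marker genes, most of them of proteins the sort selected against, Fcgr2b was called higher (1.34-fold) and Fcgr3 lower (2.06-fold). All 9 monocyte and macrophage markers and 4 of 9 neutrophil markers were called higher in the arrays labelled Mx1Cre, with no marker of either list called lower. The mean of the 9 monocyte markers was 6.26 to 6.49 in the flox/flox arrays and 8.40 to 8.58 in the others. Of 10 erythroid and 7 megakaryocyte markers, 2 each were called lower and 0 higher. Of 11 T and NK cell, 8 B cell and 5 plasma cell markers 0 were called in either direction, and of 8 stromal and endothelial markers 1 was called lower. The part of these other cell types in the ribosomal protein values was not tested, and in sorted bulk RNA a change in the mix of cells cannot be told apart from a change in RNA per cell.

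Each ribosome joins a small subunit, which reads the mRNA, to a large subunit, which forms the peptide bond, and cells make nearly all ribosomal proteins in step because each ribosome takes about one copy of each. Their mRNAs typically begin with a C followed by a run of pyrimidines (the 5′ terminal oligopyrimidine or TOP motif), through which mTORC1 and the RNA-binding protein LARP1 control translation. In blood formation the genes are best known from Diamond-Blackfan anaemia, an inherited failure of red cell production caused by loss of 1 copy of one of several ribosomal protein genes. The mouse genome also holds many processed pseudogenes of these genes, so probes for them can read more than one locus.

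Runs of pyrimidines at the annotated start were looked for because of the TOP motif. Of the 54 standard genes, 43 had an entry in the RefSeq promoter table (GRCm38.p6), and 21 of the 43 (48.8%) had an unbroken run of at least 8 letters C or T on the coding strand within 30 bases of an annotated start. The same search found a run in 25.8% of all 27025 genes in the table and in 25.5% of the 15613 genes measured here. A run that held the annotated start base itself was found in 12 of the 43 (27.9%), in 4.59% of all genes in the table and in 4.36% of those measured. Stretches are shown for the standard genes with such a run whose 3 values under one label lay wholly above or below the 3 under the other. Capitals mark the run in each stretch of 30 bases, written 5′ to 3′ on the coding strand. Where a gene had several annotated starts, the stretch with the longest run is given.
Rplp2, chr7:141447636-141447665, plus strand: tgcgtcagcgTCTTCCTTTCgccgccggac
Rpl34, chr3:130730330-130730359, minus strand: acccgCCCCTTCCTTTTCCTCTTCCgggga
Rpl28, chr7:4792952-4792981, plus strand: gcctctcgtgTCTCTCTTTCCgtctccggc
Rps6, chr4:86857349-86857378, minus strand: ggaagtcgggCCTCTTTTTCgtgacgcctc
Rpl27a, chr7:109519186-109519215, plus strand: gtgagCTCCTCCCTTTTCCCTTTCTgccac
Counting the annotated start base as 0, the runs spanned -5 to 4 in Rplp2, -17 to 2 in Rpl34, -3 to 7 in Rpl28, -1 to 8 in Rps6 and -4 to 15 in Rpl27a. The first 3 genes had higher and the last 2 lower signals in the arrays labelled Mx1Cre, so a run at the start stood in genes on both sides. None of these genes was called. Values without overlap were about as common among the 63 genes (20.6%) as among all genes (21.6%), and a link between runs and direction was not tested. The runs near the starts of Rps25 and Rps7, which also had values without overlap, ended before the start, at -9 and -22. Whether the annotated starts are those used in these cells was not tested. The letters CTTTCC, which can lie within such a run, were found on the coding strand in the same span in 11.6% of the 43 genes, against 3.40% of all genes in the table. The ETS factor core CCGGAAG was searched on either strand of the window of 300 bases (250 before the start and 50 after). It was found in 39.5% of the 43 genes, against 9.93% of all genes in the table and 13.6% of those measured. AAGATGG, the core of the YY1 motif, was found in 9.30%, against 7.28% of all genes and 7.28% of those measured. TATAAA was found in 11.6%, against 15.7% of all genes and 13.6% of those measured, both motifs on either strand. These shares count letters in a window and were not tested.

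No ribosomal protein gene passed the test between the labels. In the limma fit over all 19937 genes, 0 of 63 passed an adjusted p under 0.05, where 4.91% of all genes did (2.63% higher and 2.28% lower in the arrays labelled Mx1Cre), and 3 had an unadjusted p under 0.05, where 16.4% of all genes did. The 3 were Rps4l, Rplp1 and Rpl34, each higher in the arrays labelled Mx1Cre, with limma adjusted p-values of 0.205, 0.255 and 0.263. The differences, taken as Mx1Cre minus flox/flox, ran from -0.11 to 0.35 log2 units. Their median was 0.025, beside -0.011 over all genes, and 40 of 63 were above 0 (63.5%, against 46.6% of all genes). The median size of a difference regardless of sign was 0.046 log2 units, beside 0.096 over all genes. All genes are mostly dimmer, and 129 other genes with a mean log2 signal of 12 or above, a bound chosen after the values were seen, came closer. Their median difference was 0.011 and their median size 0.055 log2 units, 55.0% were above 0 and 2 were called (1.55%). An unadjusted p under 0.05 (limma) was found for 12 of the 129. Of the ribosomal protein genes 42 lay above the same bound, 1 of them with an unadjusted p under 0.05. These 42 had a median difference of 0.015 and a median size of 0.034 log2 units, with 61.9% above 0. A p above the threshold does not show that a gene is equal in both groups. The intervals give the differences in signal of 1 probe set per gene that the spread between arrays allows. They do not cover differences that bright probes may have understated, or other probe sets of the same gene. The 95% interval lay within 0.25 log2 units of 0, or 1.19-fold, for 34 genes, and within 0.5 log2 units, or 1.41-fold, for 62. Rps4l was the exception to the wider bound, with an interval of 0.057 to 0.64.

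**Figure D1:**
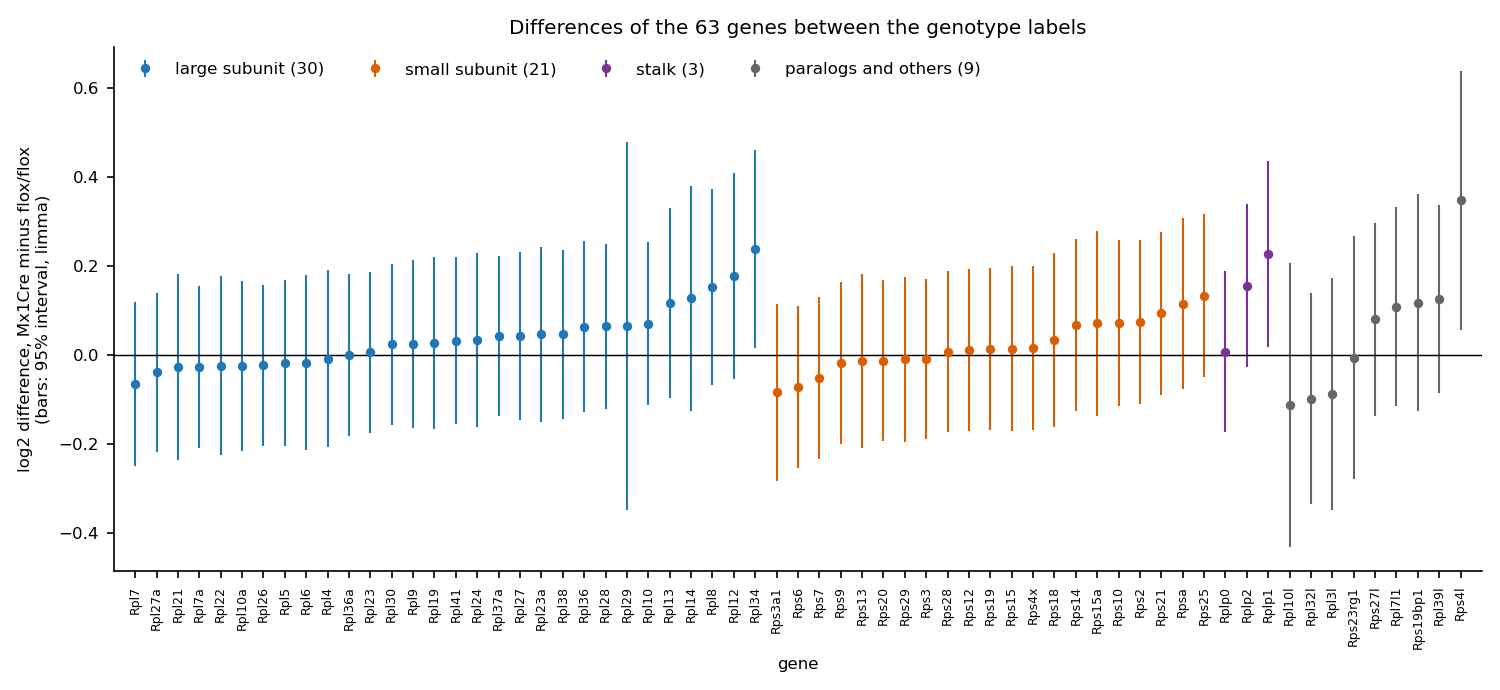
Log2 difference (Mx1Cre minus flox/flox, vertical axis) of each of the 63 genes, coloured by class, with bars for the 95% interval from limma. All 54 standard genes have intervals inside 0.5 log2 units either side of 0, and only the intervals of Rplp1, Rpl34 and Rps4l leave out 0.

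The median residual standard deviation within a label was 0.057 log2 units over the 63 genes, 0.124 over all genes and 0.061 over the 129 other genes of high signal. Because limma pulls each gene's spread towards that of all genes, the median standard error of the 63 differences was 0.085 log2 units. It was 0.054 when the prior followed the signal level, and 46 intervals then lay within 0.25 log2 units of 0. That fit still called 0 of the 63, with 4 at an unadjusted p under 0.05 and a smallest adjusted p of 0.0728 (limma, Rplp1). Many of these probe sets read near the top of the scale. The 54 standard genes had a median log2 signal of 12.76, and the top value of any probe set on an array was 13.94 to 14.18. Signals of different probe sets are not on one scale of abundance. Whether bright probes understated differences was not tested.

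The values of the labels did not overlap for 13 of the 63 genes, or 20.6%, and for 21.6% of all genes. They were higher in the arrays labelled Mx1Cre for 9 genes and lower for 4, where 2100 of all 19937 genes were higher and 2199 lower. The median deviation of the 54 standard genes from their own means was -0.033, -0.00077 and -0.0070 log2 units on flox/flox replicates 1, 2 and 3, and 0.0020, 0.020 and 0.012 on the Mx1Cre replicates. The highest of the 6 arrays was Mx1Cre replicate 2 for 15 of the 54 genes, and the lowest was flox/flox replicate 1 for 18. The median was thus below 0 on all 3 flox/flox arrays and above 0 on all 3 Mx1Cre arrays, by at most 0.033 log2 units. This order held in the stalk genes but not within either subunit. The large subunit median was 0.0088 on flox/flox replicate 2 and -0.0046 on Mx1Cre replicate 1. The small subunit median was 0.011 on flox/flox replicate 3. Over all genes the medians were 0.014, 0.018 and -0.012 on the flox/flox arrays and 0.0099, -0.0026 and -0.012 on the Mx1Cre arrays. The order was not tested.

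All 3 stalk genes had differences above 0, with a median of 0.16 log2 units, and 0 were called. Rplp0 anchors the stalk on the large subunit, and Rplp1 and Rplp2 form pairs that recruit elongation factors to the ribosome. Rplp1 read 12.56, 12.36 and 12.59 on the flox/flox arrays and 12.68, 12.76 and 12.75 on the Mx1Cre arrays. Its groups did not overlap, flox/flox replicate 2 being the lowest array. The difference was 0.23 ± 0.094 log2 units (SE, n = 3 per group, limma adjusted p = 0.255), or 1.17-fold. A second probe set of Rplp1 gave 0.23 ± 0.091 (SE, limma adjusted p = 0.242 in the fit over probe sets), also without overlap. The 2 sets carry the same symbol and may share targets, so they are not independent. Rplp2 read 10.17, 10.23 and 10.23 on the flox/flox arrays and 10.40, 10.36 and 10.33 on the Mx1Cre arrays, with a difference of 0.16 ± 0.082 log2 units (SE, limma adjusted p = 0.404). Its groups did not overlap either, and each had a standard deviation of 0.035. Rplp0 read 13.21, 13.26 and 13.26 against 13.23, 13.28 and 13.25, with overlapping groups and a difference of 0.0073 (limma adjusted p = 0.985). Whether Rplp1 and Rplp2 differed from Rplp0 in their response was not tested.

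**Figure D2:**
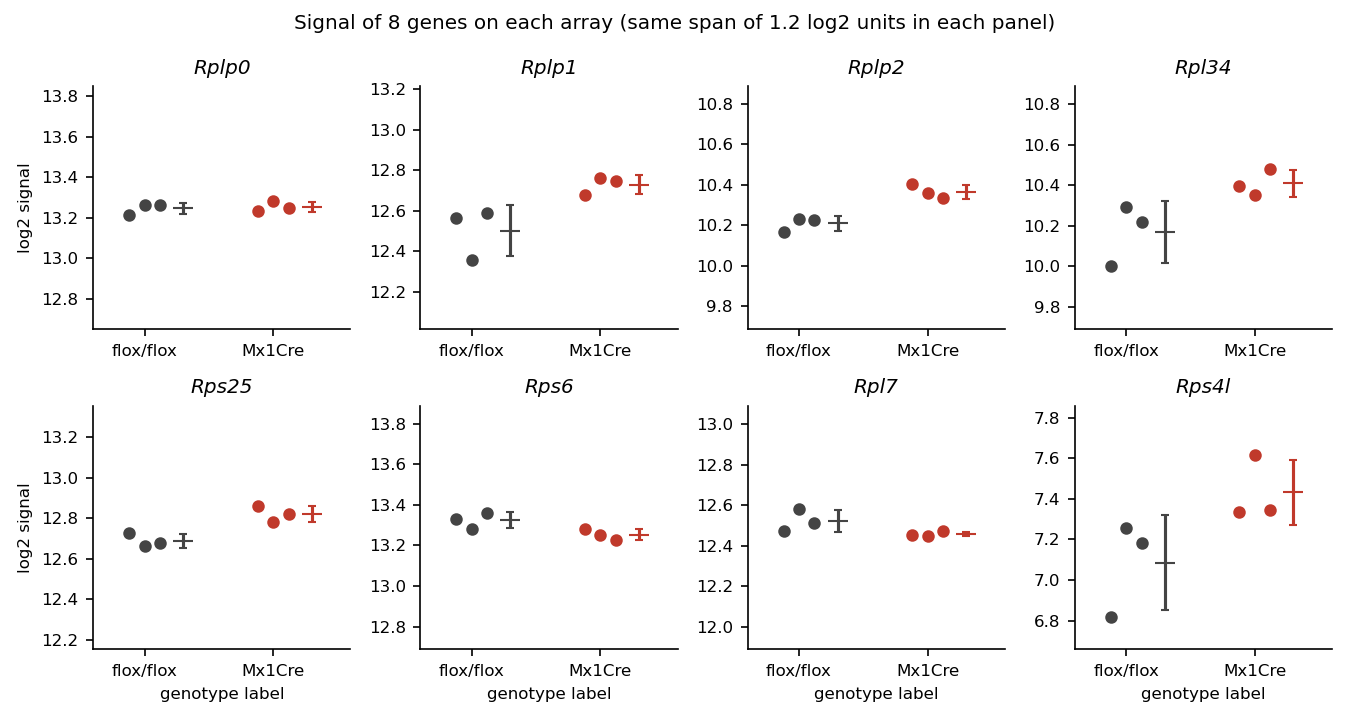
Log2 signal (vertical axis, a span of 1.2 units in every panel) of 8 genes on each array, by genotype label, with the mean and standard deviation beside the 3 points. Rplp1, Rplp2, Rpl34, Rps25 and Rps4l lie higher without overlap in the arrays labelled Mx1Cre. Rps6 and Rpl7 lie lower without overlap, and Rplp0 overlaps. None of the 8 was called. Values without overlap were found for 13 of the 63 genes (20.6%, against 21.6% of all genes), so the 8 are not typical of them.

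Of 30 large subunit genes 19 had positive and 11 negative differences, with a median of 0.030 log2 units, and 0 were called. Rpl34, a protein of the large subunit, read 10.0003, 10.29 and 10.22 on the flox/flox arrays and 10.40, 10.35 and 10.48 on the Mx1Cre arrays. The groups did not overlap, and flox/flox replicate 1 was the lowest array. The difference was 0.24 ± 0.10 log2 units (SE, limma adjusted p = 0.263), the highest of the 54 standard genes, and it ranged from 0.15 to 0.30 when 1 array was left out. Rpl12, which sits at the base of the stalk, differed by 0.18 ± 0.10 (SE, limma adjusted p = 0.468) from a flox/flox mean of 7.21, with overlapping groups. Rpl28 (0.065) and Rpl37a (0.043) also had higher values without overlap in the arrays labelled Mx1Cre, each by under 0.07 log2 units.

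On the other side lay Rpl7 and Rpl27a. Rpl7 read 12.47, 12.58 and 12.51 on the flox/flox arrays and 12.45, 12.45 and 12.47 on the Mx1Cre arrays. The groups did not overlap but lay next to each other, with a difference of -0.064 ± 0.083 (SE, limma adjusted p = 0.812). Rpl27a differed by -0.039, with standard deviations of 0.0088 in the flox/flox and 0.014 in the Mx1Cre arrays. Over its 9 probe sets the differences ran from -0.039 to 0.29, and another set was higher without overlap (0.21). Rpl5, which with Rpl11 and 5S rRNA forms the particle that binds the p53 inhibitor MDM2 when ribosome assembly fails, differed by -0.018, with an interval of -0.20 to 0.17. Rpl22, known for its role in lymphocyte development, differed by -0.024, with an interval of -0.23 to 0.18. Rpl9, whose probe set had the highest signal of the 63, read 13.58, 13.65 and 13.56 against 13.68, 13.57 and 13.62, with overlapping groups.

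Of 21 small subunit genes 13 had positive and 8 negative differences, with a median of 0.014 log2 units, and 0 were called, also before adjustment. Rps25, a surface protein needed for initiation at some viral internal entry sites, read 12.73, 12.66 and 12.68 on the flox/flox arrays and 12.86, 12.78 and 12.82 on the Mx1Cre arrays. Its groups did not overlap, and the difference of 0.13 ± 0.082 (SE, limma adjusted p = 0.505) was the largest of the subunit. Over its 6 probe sets the differences ran from -0.062 to 0.21, and the groups overlapped in all but the brightest set. Rpsa, also known as a laminin receptor, differed by 0.12 with overlapping groups. Its 5 probe sets gave 0.076 to 0.24, and only the set at 0.24 was higher without overlap. Rps21 (0.093) and Rps2 (0.074) were higher without overlap. The second set of Rps21 gave 0.23 ± 0.083 (SE, limma adjusted p = 0.180 in the fit over probe sets), also without overlap. The other sets of Rps2 (0.055 and 0.084) overlapped.

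Rps6, the substrate of the S6 kinases, read 13.33, 13.28 and 13.36 on the flox/flox arrays and 13.28, 13.25 and 13.23 on the Mx1Cre arrays. Its Mx1Cre values were lower without overlap, with a difference of -0.072 ± 0.082 (SE, limma adjusted p = 0.775). Rps7 was likewise lower without overlap (-0.052), and Rps3a1 had the lowest difference of the standard genes, -0.084, with overlapping groups. Rps14, whose loss underlies the anaemia of a myelodysplastic syndrome, differed by 0.068 with an interval of -0.13 to 0.26. Rps19, the gene most often mutated in Diamond-Blackfan anaemia, read 11.85, 11.94 and 11.86 against 11.89, 11.91 and 11.88. Its difference was 0.014, with an interval of -0.17 to 0.20. The list of Diamond-Blackfan genes held 19 members, of which 9 had a probe set of their own. Of the 9, 0 were called, and their differences ran from -0.052 to 0.072.

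The 6 paralogs, the 2 unclassed genes and Rps19bp1 varied more between replicates, with a median residual standard deviation of 0.146. None passed. Rps4l, a gene resembling the X-linked Rps4x, read 6.82, 7.26 and 7.18 on the flox/flox arrays and 7.33, 7.62 and 7.35 on the Mx1Cre arrays. Its groups did not overlap, flox/flox replicate 1 being lowest and Mx1Cre replicate 2 highest. The difference of 0.35 ± 0.13 log2 units (SE, limma adjusted p = 0.205) was the largest of all 63 genes, and a second probe set of the gene gave 0.18 ± 0.11 with overlap. Rps4x itself differed by 0.016. Rps27l, a p53 target related to Rps27, differed by 0.080 and Rpl7l1 by 0.11, both with overlapping groups. Rpl3l, a muscle paralog, Rpl10l, a testis paralog, and Rpl39l, also known from testis, had mean log2 signals of 5.52, 5.53 and 4.25, below the lower quartile of all genes (5.63). Their differences were -0.087, -0.11 and 0.13. Rpl32l (-0.098), Rps23rg1 (-0.0057) and Rps19bp1 (0.12) overlapped between the labels.

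A single gene could be read by up to 10 probe sets, as Rpl23a was. Of the 63 genes 38 had several sets, and for 18 of these the sets' differences had opposite signs. Rpl21 spread most, from -0.40 to 0.52 log2 units over 9 sets whose mean signals ran from 2.78 to 10.81. One of its sets was the only one of the 195 called in the fit over the 21640 sets with a single symbol, where 4.43% passed. It read 6.29, 6.24 and 6.10 against 6.78, 6.52 and 6.59, a difference of 0.42 ± 0.10 (SE, limma adjusted p = 0.0475), and 11 of the 195 had an unadjusted p under 0.05, where 16.3% of all such sets did. In the limma fit over all 34760 probe sets, where 0.869% passed, 0 of the 195 did. The set of highest signal, which stood for Rpl21, differed by -0.028. Rpl13 gave -0.13 to 0.35 over 9 sets and Rpl10a -0.19 to 0.16 over 4. All 8 sets of Rpl36 were above 0 (0.034 to 0.39) and so were all 7 of Rps12 (0.011 to 0.24), while all 4 of Rpl5 were below 0 (-0.22 to -0.018). The sets of Rps4x all lay within 0.024 of 0. The other genes with sets of both signs were Rpl10, Rpl19, Rpl23, Rpl23a, Rpl24, Rpl27a, Rpl28, Rpl38, Rpl6, Rpl9, Rps18, Rps25, Rps29 and Rps6, with differences between -0.26 and 0.29.

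Of the 195 sets 115 had differences above 0 and 80 below. Values did not overlap between the labels for 25 sets, 17 higher and 8 lower in the arrays labelled Mx1Cre, where 21.3% of all sets with a single symbol did not overlap. Differences were smaller among sets of high signal, in bands chosen after the values were seen. The median size regardless of sign was 0.14 log2 units in 29 sets with a mean signal under 8, 0.075 in 30 sets from 8 to 10 and in 42 from 10 to 12, and 0.043 in 94 sets at 12 or above. Of those 94 brightest sets 60 were higher and 34 lower in the arrays labelled Mx1Cre.

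**Figure D3:**
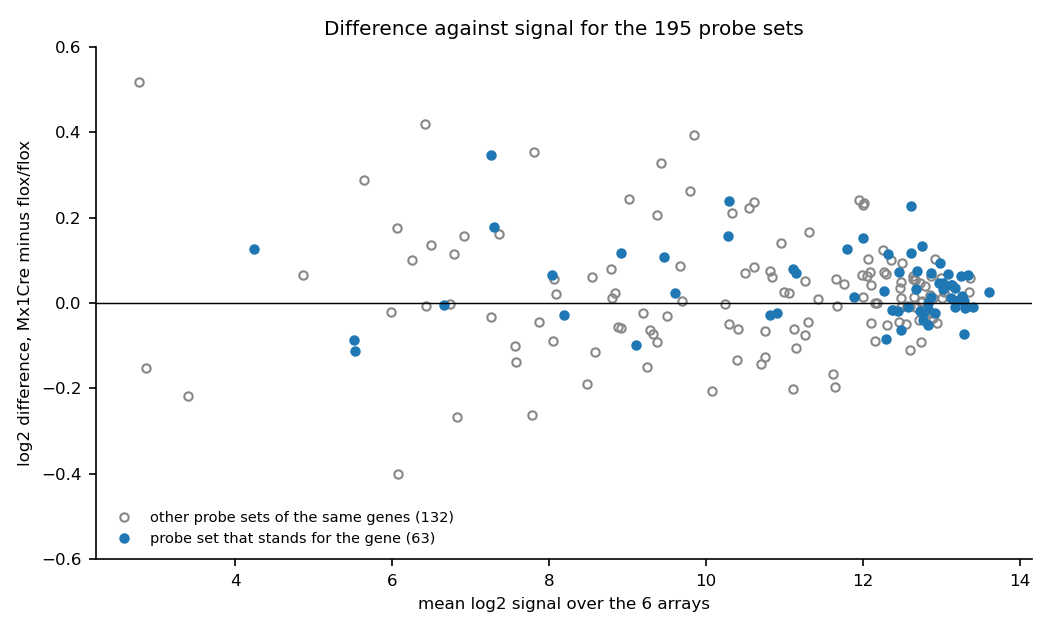
Log2 difference (Mx1Cre minus flox/flox, vertical axis) against mean log2 signal over the 6 arrays (horizontal axis) for the 195 probe sets, filled where the set stands for its gene. Sets with a mean signal of 12 or above lie between -0.11 and 0.23, and those under 8 between -0.40 and 0.52.

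Not every ribosomal protein could be followed. Of 77 standard genes listed, 23 had no probe set of their own, of which 16 appeared only on sets shared with other symbols, often pseudogenes. The value table held 209 sets with several symbols that include a matching one, and no gene is named from them. Their differences had a median of 0.0061 log2 units, with 108 above and 101 below 0. In the fit over all probe sets 0 of the 209 were called, where 0.869% of all 34760 sets passed. Of the 209, 2 had an unadjusted p under 0.05 (limma), where 13.4% of the sets that stood for a gene did. Fau, whose product is processed to the small subunit protein eS30 but whose symbol the rule does not match, differed by 0.043 ± 0.086 (SE, limma adjusted p = 0.890).

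Other genes of translation were read from lists, whose counts called stand beside 4.91% of all genes called in either direction, 2.63% higher and 2.28% lower. Of 17 translation genes with known TOP mRNAs, such as the elongation factor genes Eef1a1 (-0.013) and Eef2 (0.18), 0 were called or had an unadjusted p under 0.05, and the median difference was 0.040. Of 27 further initiation and termination genes 0 were called and 3 had an unadjusted p under 0.05 (limma), with a median of 0.072. Without flox/flox replicate 3, 2 of the 27 were called. Among 77 mitochondrial ribosomal protein genes, which serve a separate ribosome, Mrpl33 alone was called, rising 1.32-fold (limma adjusted p = 0.0354), and the median was 0.066. Mrpl33 was not called when any one array was left out (adjusted p 0.0551 to 0.152), although 1 member of that list passed without Mx1Cre replicate 1.

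Ribosome production also needs RNA polymerase I and the factors that cut and fold its transcript. Of 49 genes of rRNA synthesis and processing 5 rose and 0 fell in the arrays labelled Mx1Cre, with a median of 0.13 log2 units and 44 of 49 above 0. Polr1a, the largest subunit of RNA polymerase I, read 7.999, 7.97 and 8.17 on the flox/flox arrays and 8.68, 8.66 and 8.72 on the Mx1Cre arrays. The groups did not overlap, and it rose 1.56-fold (0.64 ± 0.090 log2 units, SE, limma adjusted p = 0.00273). Utp20, of the small subunit processome, rose 1.49-fold (limma adjusted p = 0.00389). The count was 3 without Mx1Cre replicate 2 and 3 without Mx1Cre replicate 3, and Polr1a and Utp20 were called whichever array was left out. Whether this list differed from the ribosomal proteins was not tested. Of 26 genes of nuclear import, subunit assembly and the p53 checkpoint only Ipo5, an importin that carries ribosomal proteins, rose (1.38-fold, limma adjusted p = 0.0295). Without flox/flox replicate 1, flox/flox replicate 3 or any Mx1Cre replicate it was not called, with adjusted p-values of up to 0.123.

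Of 19 regulators of TOP mRNAs and of ribosome production 2 rose and 2 fell. Larp1, whose product binds TOP mRNAs, rose 1.34-fold (9.43 ± 0.13 against 9.86 ± 0.064, SD, n = 3 each, limma adjusted p = 0.0339), and Myc, which drives ribosome production, 1.39-fold (limma adjusted p = 0.0487). Neither was firm. Larp1 was not called without any one of the 6 arrays (adjusted p 0.0628 to 0.136), and Myc was called only without flox/flox replicate 1 (0.0268, against up to 0.142 without another). Mycn fell 1.72-fold (limma adjusted p = 0.0166), though not without flox/flox replicate 1 (0.0630) or 2 (0.0529). Rps6ka3, the kinase RSK2, fell 1.53-fold (limma adjusted p = 0.00715), also whichever array was left out. In the limma fit over all probe sets, where 0.869% of the sets passed, 0 of these 19 genes were called. Rps6ka3 had a limma adjusted p of 0.0645 there. The list's count of 4 was 1 without flox/flox replicate 2 and 2 without any other array. Mtor itself differed by 0.18 ± 0.10 (SE, limma adjusted p = 0.425).

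**Figure D4:**
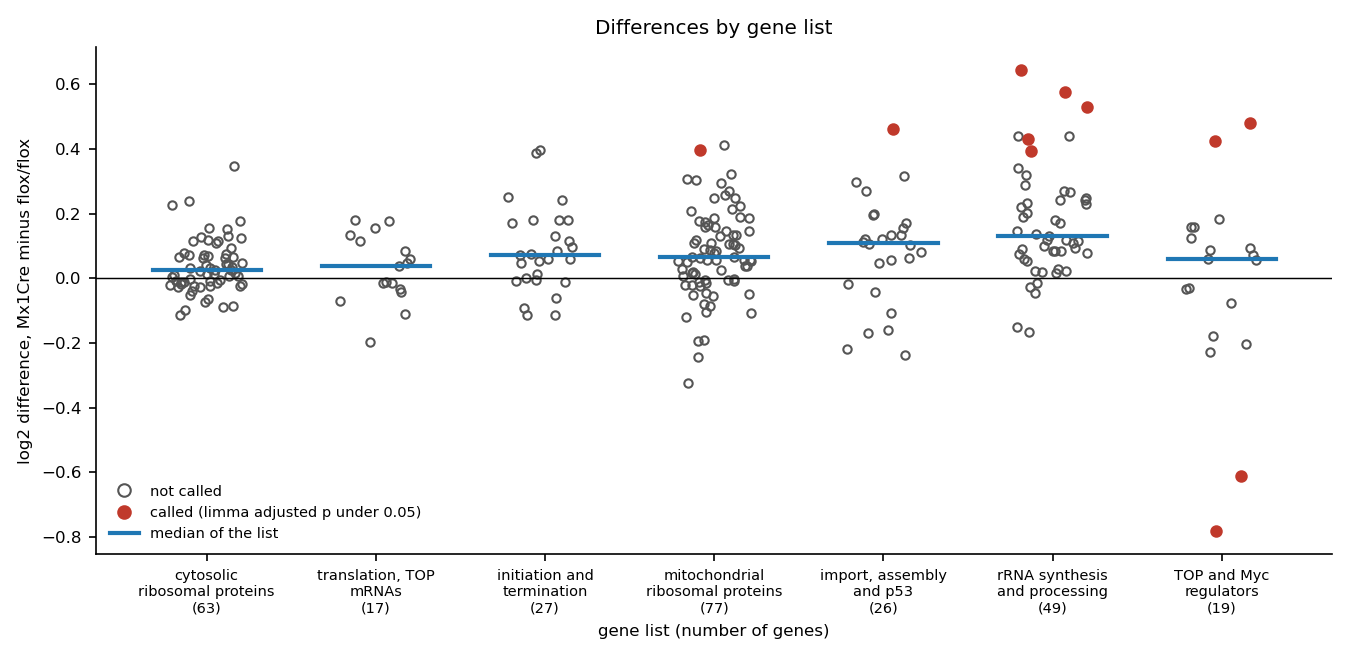
Log2 difference (Mx1Cre minus flox/flox, vertical axis) of the genes of 7 lists, with called genes filled red and the median of each list as a blue line. The 63 cytosolic ribosomal protein genes hold no called gene and have a median of 0.025, and the 49 genes of rRNA synthesis and processing hold 5, all above 0, with a median of 0.13.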

How the data were processed

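The deposited log2 values per probe set were made by the authors with RMA and affy, per the submitters' processing notes. Which versions and chip definition were used is not given in the sources used here. RMA subtracts background, applies quantile normalization and combines probes, so levels are relative to all probe sets of an array. Each array is 1 mouse, per the design text, and the number of arrays limits the precision. Probe sets were named from the platform annotation, which can be old: 21640 had 1 symbol, 1321 several and 11799 none here. The set of highest mean signal stood for a gene. Differences were fitted with limma 3.58.1 in R 4.3.3 (lmFit, eBayes) and adjusted by Benjamini-Hochberg over 19937 genes, with no filter, so all 63 members were tested. The fit was tested on simulated data. The rule for named genes takes all paralogs and called members, extreme differences and signals, genes whose sets oppose in sign, and up to 2 called genes per list and direction. Other genes were named for their known roles or after their values were seen. Members and lists were chosen with earlier results of these data known. No scan date or other batch was used here.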

Additional observations from a re-analysis of the deposited data

How the results depend on the processing

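The count of 0 called ribosomal protein genes held under each alternative run at a threshold of 0.05. These were centring on the median, cyclic loess, both filters on dim genes (which left 60 of the 63), a gene's mean over its probe sets, both fits over probe sets, a prior following intensity, weighted arrays, the replicate block and each array left out. In the fits over probe sets only the set that stood for each gene was counted. Another set, of Rpl21, was called in the fit over sets with a single symbol (limma adjusted p = 0.0475). At a threshold of 0.1 the count of genes was 0 as well, except in the following fits. It was 1 with the block (Rps4l, limma adjusted p = 0.0882) and 1 with the prior following intensity (Rplp1, 0.0728). The median difference of the ribosomal protein genes lay between 0.014 and 0.035 log2 units. With the replicate number as a block 0 of the 63 were called and 1089 of all genes, against 979 without it. The numbers share no stated origin, and deviations of same-numbered arrays correlated at 0.188, 0.0515 and 0.174. By best correlation, 3 of 3 flox/flox and 2 of 3 Mx1Cre arrays matched their own number. With 1 array left out the count over all genes was 538 to 785. Leaving out flox/flox replicate 1 gave 541 and replicate 3 gave 547, and leaving out Mx1Cre replicate 2 gave 636 and replicate 3 gave 538. The fit over all probe sets, which tests more features, called 244 of these genes. Among the named genes' values under alternatives, 662 kept their side of the threshold, 36 lost it and 0 reversed. Most of the named genes were not called in the main fit and so had no call to lose. All 36 came from the genes that were called, and most of the 662 from genes that stayed uncalled. A change of sign counted as reversed only if the gene was called in either fit. Some genes that were not called did change sign, such as Rpl29 (-0.086 to 0.28) and Rpl19 (-0.0996 to 0.072). Signals near the top of the scale may limit what these arrays can show.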
